A study of Homo sapiens with 12 samples.

Results

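Human gene expression was measured in tumours released from palbociclib, an oral drug that inhibits CDK4 and CDK6, kinases that start the cell cycle. The comparison sets 3 tumours collected after 2 weeks of the drug and a recovery period (palbociclib recovery) against 3 tumours collected when the 2 weeks of drug ended (palbociclib end of treatment). These are 6 of the 12 libraries of the study, chosen by their stated treatment, and the features are the 58243 human identifiers among the 112389 human and mouse identifiers counted in each library. The other 6 tumours received vehicle for the same 2 weeks, with recovery (3 tumours) or without it (3 tumours), and serve here for the change over the same interval without drug.

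All 12 tumours grew from MCFDCIS, a human breast line whose xenografts resemble ductal carcinoma in situ. Cells were placed under the skin of an athymic nude mouse, a host that lacks mature T cells but keeps its other immune and stromal cells, and were left for 2 weeks to establish. Palbociclib was then given daily by gavage at 50 mg per kg. The labels do not give the length of the recovery period, and nothing in them says that the tumours of a group came from separate mice. A p-value here therefore sets a difference against the spread among these particular tumours, and edgeR took that spread from all 12.

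In a dividing cell, D-type cyclins activate CDK4 and CDK6, which phosphorylate the retinoblastoma protein and so free the E2F factors that drive the genes of DNA replication. Genes of mitosis are switched on later, by the MuvB complex with MYBL2 and FOXM1, and are held down in resting cells by the DREAM form of MuvB, which binds a short promoter element called the CHR. Palbociclib blocks the first of these steps, and its withdrawal is known to let cells with an intact retinoblastoma pathway return to the cycle.

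The 6 palbociclib libraries held between 9313272 and 12352064 human counts. Mouse genes took 19.0%, 21.6% and 21.4% of assigned counts in recovery tumours and 17.0%, 17.6% and 25.4% in end-of-treatment tumours, so the groups overlapped (exact two-sided permutation p = 0.8, where 0.1 is the smallest p that 3 against 3 can give). The basal keratin and adhesion genes KRT5, KRT14, KRT17, TP63, EPCAM and ITGB4, which mark the basal-like tumour cell, summed to 8790 to 11200 CPM (a gene's counts per 1000000 human counts of the library) in recovery tumours and 8869 to 9251 in end-of-treatment tumours, and none of the 6 passed the test. Among human rows, 19 markers of host cells summed to 224 to 297 CPM in recovery tumours and 224 to 351 in end-of-treatment tumours, none of the 10 that were tested passed, and the red cell marker HBB was at 0 in all 12 libraries. In a principal component analysis of the 6 libraries, the first component (41.06% of the variance) put recovery tumours at -26.4, -25.0 and -35.8 and end-of-treatment tumours at 29.7, 27.5 and 30.02. The second (20.31%) set recovery tumour 3, at -37.5, apart from recovery tumours 1 and 2, at 16.7 and 28.0. Among vehicle libraries, recovery tumour 2 lay far from all others in human expression, and end-of-treatment tumours 2 and 3 had 5.32% and 11.2% of their human counts in mitochondrial genes. Many results that depend on these 3 libraries are also given without them, and the others use all 12 libraries.

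Release from the drug was marked by higher expression of genes for DNA replication, chromosome segregation and cytokinesis. Some genes of the low oxygen response and of glycolysis, chemokines and epidermal growth factor ligands also rose, while a smaller set of genes, among them CCND1, BTG2 and NRG1, fell. None of these chemokines, ligands or falling genes passed the test, described below, of a difference from the change in vehicle tumours. Of the 43 low oxygen and glycolysis genes tested, ADM alone passed it. With edgeR (quasi-likelihood test, Benjamini-Hochberg adjustment over all genes), 526 of 18628 human genes (2.82%) passed at an adjusted p under 0.05. Of all genes tested, 439 (2.36%) rose and 87 (0.467%) fell, and 265 of those that rose changed at least 2-fold. The median log2 fold change was 1.15 for the genes that rose, -0.82 for those that fell and -0.01 for all genes tested. At none of the 526 genes did the 3 recovery and 3 end-of-treatment tumours overlap, while over all genes 14.9% were without overlap in the higher and 14.2% in the lower direction. Because these are whole tumours, more cells in cycle and more RNA per cycling cell cannot be told apart.

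The counts depended on which libraries entered the fit. Leaving out 1 palbociclib tumour at a time left 184 (without end-of-treatment tumour 1) to 319 (without end-of-treatment tumour 2) genes that rose and 21 to 37 that fell, whereas leaving out vehicle recovery tumour 2 gave 979 and 446 and leaving out vehicle end-of-treatment tumours 2 and 3 gave 300 and 39. Of the 439 genes, 434 also rose without vehicle recovery tumour 2 and 290 without the 2 vehicle end-of-treatment tumours. Among genes named below, the call was lost without those 2 tumours at CCND1, TFDP2, WDHD1, CHEK1, MCM2, KLF9, TP53INP1 and SPATA18. It was also lost there at DUSP5, JUND, MYLK, FADS1, SQSTM1, OLFM4 and FABP7. Without vehicle recovery tumour 2, 3 of the genes named below lost it (CCL20, ANGPTL4 and CXCL1, edgeR adjusted p from 0.052 to 0.095).

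**Figure D1:**
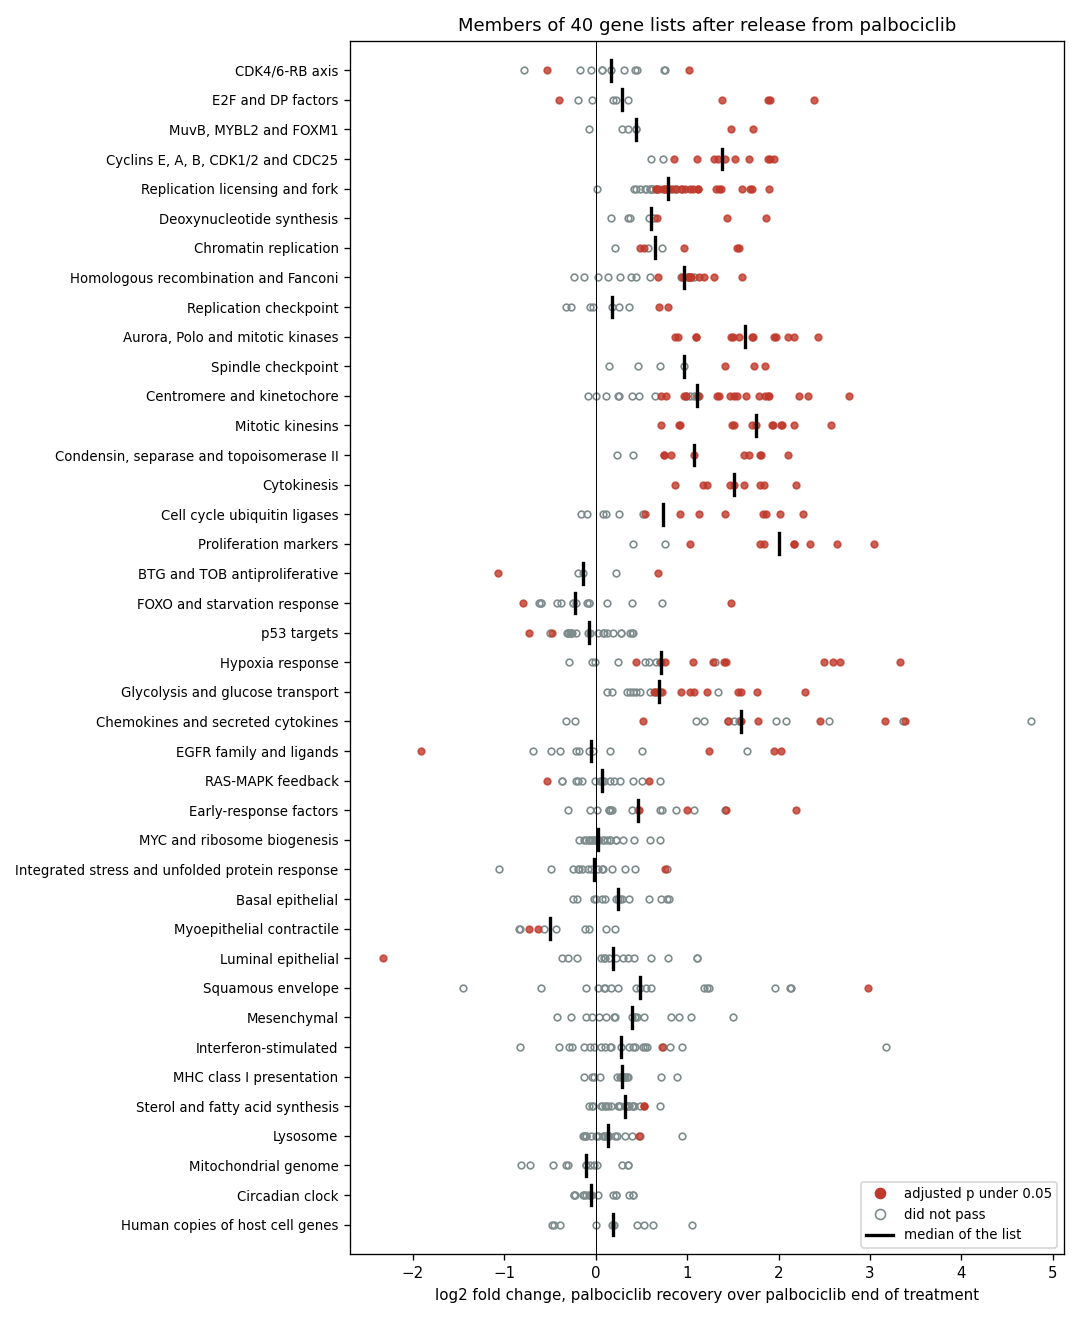
Log2 fold change of palbociclib recovery over palbociclib end of treatment (horizontal axis) for the tested members of 40 gene lists (rows). Filled points passed edgeR's test at an adjusted p under 0.05, open points did not, and black bars are list medians, which run from -0.50 for myoepithelial contractile genes to 2.01 for proliferation markers. List members were chosen with earlier results of these data known.

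The genes of the drug's own target step gave mixed values. CCND1, the D-type cyclin that activates CDK4 and CDK6, had 210, 223 and 259 CPM (here and below scaled by the trimmed mean of M-values) in recovery tumours, against 293, 345 and 365 CPM in end-of-treatment tumours. Its highest recovery tumour lay below its lowest end-of-treatment tumour. CCND1, on chromosome 11 from 69641087 to 69654474 (GRCh38), fell by 0.54 ± 0.12 on the log2 scale (SE, edgeR adjusted p = 0.024). The call was lost without recovery tumour 1 or 2 or end-of-treatment tumour 2 or 3 (edgeR adjusted p up to 0.15), and without vehicle end-of-treatment tumours 2 and 3 (edgeR adjusted p = 0.064).

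The catalytic partners and the retinoblastoma gene did not pass. CDK4 averaged 42.0 ± 2.28 CPM in recovery tumours and 40.1 ± 5.04 CPM in end-of-treatment tumours, CDK6 310 ± 22.9 and 349 ± 32.4 CPM, and RB1 65.2 ± 3.73 and 62.1 ± 3.57 CPM, in the same order (SD, n = 3 each). RBL1, the RB relative p107 and itself an E2F target, rose by 1.02 ± 0.19 on the log2 scale (SE, edgeR adjusted p = 0.0086), a call lost without end-of-treatment tumour 1 or 3 (edgeR adjusted p up to 0.057). CDKN1A, encoding the broad CDK inhibitor p21, missed the threshold, with 114, 96.8 and 147 CPM in recovery tumours and 89.6, 95.4 and 76.1 CPM in end-of-treatment tumours. CDKN2A and CDKN2B, which encode the INK4 inhibitors of CDK4 and CDK6, had 0 counts in all 12 libraries, which allows up to 0.454 CPM in the shallowest of them (3 counts, counting error only). In all, 1 of the 13 tested genes of this list rose and 1 fell, where 2.36% of all genes rose and 0.467% fell. With 13 genes, 1 call in each direction says little about the list as a whole. The list's median log2 fold change was 0.16.

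Of the 10 E2F and DP factors 4 rose and 1 fell, and their median log2 fold change was 0.29. The activators E2F1 and E2F2 and the atypical repressors E2F7 and E2F8 rose. The DNA-binding partner TFDP2, named after its value was seen, was the one that fell (log2 fold change -0.40 ± 0.10, edgeR adjusted p = 0.045). The TFDP2 call was lost in all 6 fits that each left out 1 palbociclib tumour. E2F1 had 11.2, 13.9 and 12.5 CPM in recovery tumours, against 5.79, 5.79 and 2.80 CPM in end-of-treatment tumours (log2 fold change 1.39 ± 0.26, SE, edgeR adjusted p = 0.0097). E2F8 was higher by 2.39 ± 0.37 (edgeR adjusted p = 0.0026) and E2F7 by 1.91 ± 0.28 (edgeR adjusted p = 0.0022) on the same scale. E2F2, at 1.88 ± 0.43 (edgeR adjusted p = 0.03), passed in only 1 of the 6 fits that each left out 1 palbociclib tumour, the one without recovery tumour 3.

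Of the mitotic activators, MYBL2 and FOXM1 rose, and the other 5 MuvB genes tested did not pass. FOXM1 had 28.1, 27.6 and 25.2 CPM in recovery tumours, against 9.80, 12.7 and 6.56 CPM in end-of-treatment tumours (log2 fold change 1.48 ± 0.21, edgeR adjusted p = 0.0013). MYBL2 followed with 38.7, 32.5 and 33.6 CPM in recovery tumours and 10.6, 14.1 and 7.24 CPM in end-of-treatment tumours (1.72 ± 0.28, edgeR adjusted p = 0.0046). Among the MuvB core subunits that did not pass, LIN52 and LIN54 were at 0.44 ± 0.17 and 0.35 ± 0.12 on the log2 scale.

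Nearly every gene of the cyclin and CDK engine downstream of the blocked step was higher. In the list of E-, A- and B-type cyclins, CDK1, CDK2, WEE1 and CDC25 phosphatases, 10 of 12 genes rose, with a median log2 fold change of 1.38. CCNE2, a cyclin of S phase entry, had 12.2, 12.1 and 13.0 CPM in recovery tumours, against 4.63, 6.30 and 4.25 CPM in end-of-treatment tumours. Its groups were far apart and its recovery tumours nearly equal (log2 fold change 1.30 ± 0.18, SE, edgeR adjusted p = 0.00098). CCNB1, the cyclin that drives mitosis with CDK1, had 93.1, 77.8 and 82.4 CPM in recovery tumours, against 22.0, 29.2 and 17.4 CPM in end-of-treatment tumours (1.89 ± 0.28, edgeR adjusted p = 0.0031). CCNE1, CCNA2 and CDK1 rose by 1.53 ± 0.25, 1.91 ± 0.27 and 1.95 ± 0.27. Opposing enzymes rose together here, since the CDK-inhibiting kinase WEE1 (1.10 ± 0.12) and the CDK-activating phosphatase CDC25A (1.41 ± 0.18) both passed. All 7 genes named here also passed whichever palbociclib tumour was left out.

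**Figure D2:**
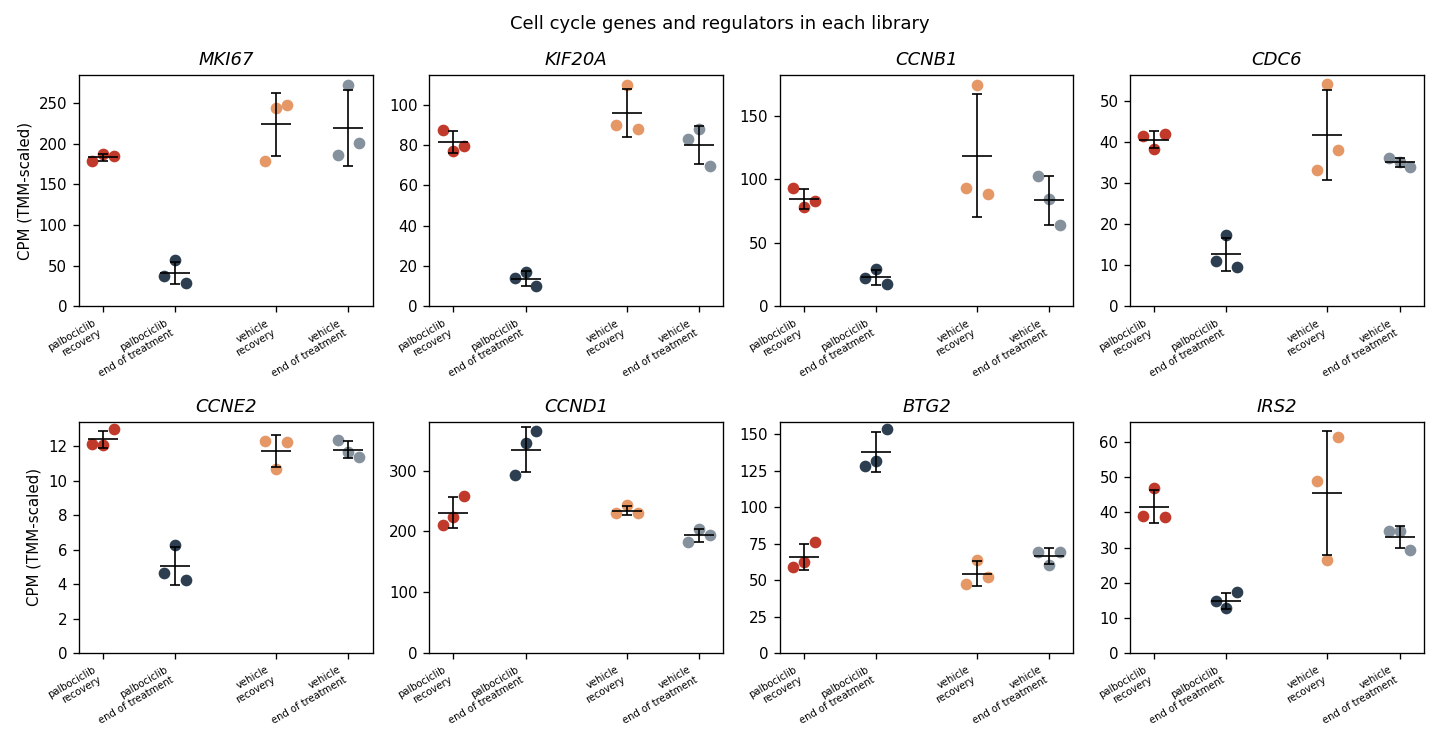
Level of 8 genes in each of the 12 libraries, in CPM scaled by the trimmed mean of M-values (vertical axes, each with its own scale), with the mean and SD of the 3 tumours per group as bars. MKI67, KIF20A, CCNB1, CDC6, CCNE2 and IRS2 are higher in palbociclib recovery than in palbociclib end-of-treatment tumours, CCND1 and BTG2 are lower, and the palbociclib groups do not overlap for any of the 8.

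Genes of DNA replication formed the first large block. Of 86 tested genes in 5 lists of S phase (replication licensing and fork proteins, deoxynucleotide synthesis, chromatin replication, homologous recombination and Fanconi repair, and the replication checkpoint), 44 rose, none fell, and the median log2 fold change was 0.73. CDC6, which loads the replicative helicase, had 41.3, 38.3 and 42.0 CPM in recovery tumours, against 11.04, 17.3 and 9.56 CPM in end-of-treatment tumours (1.69 ± 0.21, SE, edgeR adjusted p = 0.0005). The other licensing genes ORC1, CDT1 and GMNN, whose product restrains CDT1, rose by 1.71 ± 0.23, 1.32 ± 0.19 and 1.60 ± 0.22. Across the 38 licensing and fork genes, 22 rose and all 38 had positive fold changes. The helicase subunit MCM2 rose (0.98 ± 0.22, edgeR adjusted p = 0.033) but passed in only 1 of 6 fits that left out a palbociclib tumour, the one without end-of-treatment tumour 2. The sliding clamp PCNA did not pass, with 104, 92.7 and 113 CPM in recovery tumours and 56.3, 75.4 and 36.5 CPM in end-of-treatment tumours.

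Enzymes that make DNA building blocks and copy chromatin moved in part. RRM2, the cycle-regulated subunit of ribonucleotide reductase, had 48.9, 53.6 and 58.8 CPM in recovery tumours, against 13.3, 19.0 and 12.3 CPM in end-of-treatment tumours (1.86 ± 0.24, edgeR adjusted p = 0.00075). Its constant partner RRM1 did not pass (0.64 ± 0.18, edgeR adjusted p = 0.09), and 3 of 8 genes of this list rose. In the chromatin list 5 of 8 genes rose, among them UHRF1, which recruits the maintenance DNA methyltransferase (1.55 ± 0.15, edgeR adjusted p = 7.2e-05), and the histone chaperone CHAF1A (0.96 ± 0.13).

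The repair genes of homologous recombination rose in 12 of 23 cases, with a median of 0.96. EXO1, the exonuclease that resects broken ends, had 29.2, 29.6 and 28.9 CPM in recovery tumours, against 8.99, 12.8 and 7.14 CPM in end-of-treatment tumours (1.60 ± 0.20, edgeR adjusted p = 0.00045). BRCA1 and its partner BARD1 rose by 1.01 ± 0.17 and 1.19 ± 0.14, and XRCC2, which acts in strand exchange, by 1.02 ± 0.16. In contrast 2 of 9 checkpoint genes rose, WDHD1 and the kinase CHEK1 (0.69 ± 0.17, edgeR adjusted p = 0.041), and they passed in 1 and 0 of the 6 fits that left out a palbociclib tumour. The upstream kinase ATR and the kinase CHEK2 did not pass, at -0.27 ± 0.10 and 0.36 ± 0.15.

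Leaving out 1 palbociclib tumour left 18 to 49 of the 86 S phase genes past the threshold, with medians between 0.63 and 0.84. The count was 60 without vehicle recovery tumour 2 and 24 without vehicle end-of-treatment tumours 2 and 3, and the median stayed at 0.73 in both fits.

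Genes of mitosis formed the second block. Of 86 tested genes in 6 lists (mitotic kinases, spindle checkpoint, centromere and kinetochore, kinesins, condensin with separase and topoisomerase II, and cytokinesis), 67 rose, none fell, and the median log2 fold change was 1.47, against -0.01 over all genes tested. The promoters shown are those of KIF20A and PLK1 from these lists, CCNB1 from the cyclin list, and CDC6 and E2F1 of S phase entry. They are shown because the CHR element and the E2F site are the textbook switches of the 2 blocks. Each runs 5′ to 3′ on the gene's strand over 150 bases before and 20 from the start site, from RefSeq on GRCh38.p14. Capitals mark the CHR (TTTGAA or TTTAAA), the CCAAT box (CCAAT) and 4 forms of the E2F site (TTTCCCGC, TTTGGCGC, TTTGCCGC and TTTCGCGC), on either strand.
KIF20A, chr5:138178962-138179131, plus strand: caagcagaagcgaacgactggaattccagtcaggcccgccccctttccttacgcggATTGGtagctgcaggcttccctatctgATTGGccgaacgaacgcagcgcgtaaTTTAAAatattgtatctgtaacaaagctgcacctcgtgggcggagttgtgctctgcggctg
CCNB1, chr5:69167000-69167169, plus strand: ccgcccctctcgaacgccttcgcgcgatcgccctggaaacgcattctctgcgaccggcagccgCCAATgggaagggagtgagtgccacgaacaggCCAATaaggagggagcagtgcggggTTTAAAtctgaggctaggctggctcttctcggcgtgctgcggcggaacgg
PLK1, chr16:23678739-23678908, plus strand: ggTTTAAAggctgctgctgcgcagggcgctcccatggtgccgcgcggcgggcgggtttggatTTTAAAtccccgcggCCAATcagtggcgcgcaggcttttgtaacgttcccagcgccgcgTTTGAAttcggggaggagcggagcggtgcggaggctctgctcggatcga
CDC6, chr17:40287729-40287898, plus strand: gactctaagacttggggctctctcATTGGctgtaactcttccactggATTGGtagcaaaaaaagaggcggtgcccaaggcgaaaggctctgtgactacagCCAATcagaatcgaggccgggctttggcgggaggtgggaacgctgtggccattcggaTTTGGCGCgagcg
E2F1, chr20:33686366-33686535, minus strand: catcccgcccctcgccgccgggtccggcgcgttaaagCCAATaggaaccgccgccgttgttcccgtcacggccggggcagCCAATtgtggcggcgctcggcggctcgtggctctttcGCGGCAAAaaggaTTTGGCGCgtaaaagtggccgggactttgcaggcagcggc

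In the window shown, KIF20A carries a CHR 41 bases and CCNB1 30 bases before the start site, each downstream of a pair of CCAAT boxes, and PLK1 carries 3 CHR words, the nearest 29 bases before the start. CDC6 and E2F1 carry E2F sites and CCAAT boxes but none of the CHR words. Over the full promoter window of 250 bases before and 50 from the start, at least 1 CHR stood in 49 of 71 matched promoters of the mitosis lists (69.0%), in 7 of 73 of the S phase lists (9.59%) and in 16.5% of the 11252 matched promoters of all genes tested. The E2F site ordered the 2 blocks the other way, with 7.04% of mitosis promoters, 35.6% of S phase promoters and 5.07% over all genes tested. CCAAT boxes stood in 64.8%, 56.2% and 36.1% of them, in the same order. The CHR words are short and match on either strand, none of the motifs contains the letters of another, and a match is not a bound site.

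All 13 mitotic kinesins rose, with a median of 1.76. KIF20A, a kinesin of the central spindle on chromosome 5 from 138178719 to 138187715, had 87.3, 77.1 and 79.2 CPM in recovery tumours, against 13.9, 17.1 and 9.94 CPM in end-of-treatment tumours. The lowest recovery tumour stood more than 4 times above the highest end-of-treatment tumour. The log2 fold change was 2.57 ± 0.17 (SE, edgeR adjusted p = 1.2e-05), the same adjusted p as for KIF18B (2.17 ± 0.16). The kinetochore motor CENPE and the microtubule depolymerase KIF2C rose by 1.93 ± 0.17 and 2.03 ± 0.20.

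All 14 genes of the mitotic kinase list rose too, with a median of 1.64. PLK1 had 18.8, 18.5 and 21.4 CPM in recovery tumours, against 3.56, 3.72 and 3.57 CPM in end-of-treatment tumours (2.43 ± 0.30, edgeR adjusted p = 0.00059). Both groups were tight, and AURKB and NEK2, a kinase of centrosome separation, rose by 2.11 ± 0.27 and 2.17 ± 0.24. INCENP, the scaffold of the chromosomal passenger complex, rose by 1.10 ± 0.10.

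The centromere and kinetochore list had 19 of 32 genes that rose. CENPA, the histone variant that marks the centromere, had 13.3, 14.5 and 15.3 CPM in recovery tumours, against 1.87, 3.41 and 1.06 CPM in end-of-treatment tumours (2.77 ± 0.33, edgeR adjusted p = 0.00044). Its loading chaperone HJURP rose by 2.32 ± 0.25 and the kinetochore protein CENPF by 1.89 ± 0.20. In the spindle checkpoint list 3 of 7 genes rose, the kinases BUB1 and TTK and the pseudokinase BUB1B, while BUB3 did not pass (0.46 ± 0.12, edgeR adjusted p = 0.068).

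Chromosome compaction and the last step of division followed. TOP2A, which untangles sister chromatids, had 182, 177 and 191 CPM in recovery tumours, against 39.2, 61.6 and 27.4 CPM in end-of-treatment tumours (2.10 ± 0.26, edgeR adjusted p = 0.00076). Of the 11 genes of its list 9 rose, among them the condensin subunits NCAPH and NCAPG (1.62 ± 0.20 and 1.81 ± 0.27) and the separase ESPL1 (1.796 ± 0.21). All 9 cytokinesis genes rose, with PRC1, which bundles the central spindle, at 1.796 ± 0.17, the abscission factor CEP55 at 2.19 ± 0.28 and the citron kinase CIT at 1.46 ± 0.16.

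The protein destruction machinery of the cycle was split, with 8 of 14 genes that rose and a median of 0.73. UBE2C, the ubiquitin-conjugating enzyme of the anaphase-promoting complex, rose by 2.27 ± 0.26 (edgeR adjusted p = 0.00035), and the substrate receptors CCNF and DTL rose by 1.86 ± 0.17 and 1.83 ± 0.19. Among 10 genes used as proliferation markers, chosen like all lists with earlier results of these data known, 8 rose, with a median of 2.01. MKI67, on chromosome 10 from 128096659 to 128126385, had 179, 187 and 185 CPM in recovery tumours, against 37.7, 56.2 and 28.9 CPM in end-of-treatment tumours. The recovery tumours agreed within a few percent while the end-of-treatment tumours spread about 2-fold, and the log2 fold change was 2.17 ± 0.22 (SE, edgeR adjusted p = 0.00017). PIF1, a DNA helicase, had the largest change of this list, with 12.8, 10.6 and 9.25 CPM in recovery tumours, against 1.25, 1.34 and 1.35 CPM in end-of-treatment tumours (3.04 ± 0.23, edgeR adjusted p = 1.2e-05). The spindle protein TROAP, of the same list, rose by 2.64 ± 0.24 and the chromatin protein HMGB2 by 1.85 ± 0.18. GTSE1, a microtubule-binding protein of dividing cells that stands in none of the lists, rose by 2.25 ± 0.19.

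Within the end-of-treatment group, tumour 2 had the highest value at 187 of the 225 genes in the 16 cell cycle lists. The summed level of the mitosis lists was 1518, 1886 and 1273 CPM in end-of-treatment tumours 1 to 3, against 3564, 3475 and 3564 CPM in recovery tumours 1 to 3. Over all 16 lists 143 of 225 genes rose and 1 fell. Leaving out 1 palbociclib tumour at a time gave 88 (without end-of-treatment tumour 1) to 140 (without end-of-treatment tumour 2) that rose, the count was 174 without vehicle recovery tumour 2 and 110 without vehicle end-of-treatment tumours 2 and 3, and the mitosis lists alone had between 46 and 77 of their 86 genes past the threshold in these 8 fits.

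**Figure D3:**
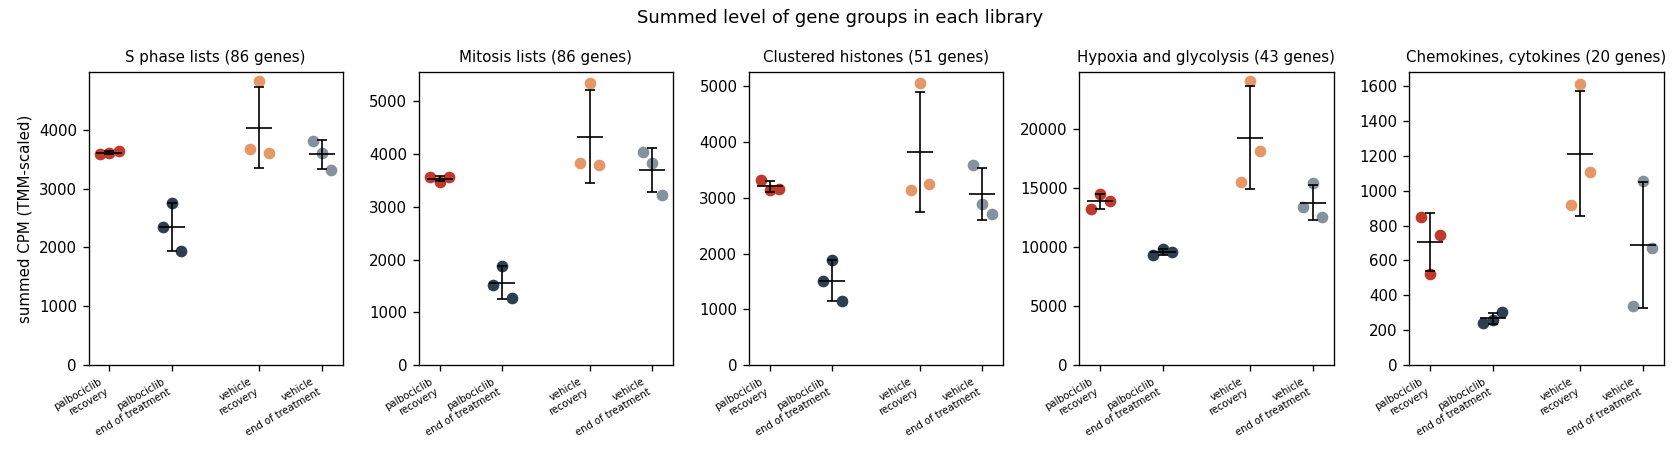
Summed CPM (vertical axes) of the tested genes of 5 groups in each of the 12 libraries, with mean and SD per group as bars. Palbociclib recovery tumours lie above palbociclib end-of-treatment tumours in all 5 panels without overlap, and vehicle recovery tumour 2 is the highest library in each panel.

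In the lists of BTG and TOB genes (5 tested), FOXO and starvation-response genes (16) and p53 targets (22), 4 genes fell and 2 rose. Over all genes tested, 0.467% fell and 2.36% rose. BTG2, an antiproliferative gene that p53 and growth arrest induce, had 59.3, 62.1 and 75.8 CPM in recovery tumours, against 128, 132 and 153 CPM in end-of-treatment tumours. The groups were well apart and BTG2 fell by 1.07 ± 0.14 on the log2 scale (SE, edgeR adjusted p = 0.00063), in all 6 fits that left out a palbociclib tumour. Its relative BTG3 rose (0.68 ± 0.14, edgeR adjusted p = 0.019) but passed in none of those 6 fits, and BTG1 and TOB1 did not pass. In all, 1 of the 5 tested genes of this family rose and 1 fell.

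In the list of FOXO and starvation-response genes, 1 of 16 rose and 1 fell. IRS2, the adaptor of insulin and IGF receptors and a FOXO target, had 39.1, 47.0 and 38.8 CPM in recovery tumours, against 14.7, 12.7 and 17.3 CPM in end-of-treatment tumours (1.48 ± 0.24, edgeR adjusted p = 0.0044). KLF9 fell by 0.79 ± 0.19 (edgeR adjusted p = 0.036), a call that held in only 1 of 6 fits, without recovery tumour 2. Of 22 p53 targets none rose and TP53INP1 and SPATA18 fell by 0.73 ± 0.15 and 0.48 ± 0.12 (edgeR adjusted p = 0.015 and 0.048), and they passed in 1 and 0 of the 6 fits. The median of the p53 list was -0.07, close to that of all genes.

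Genes of the low oxygen response and of glycolysis rose alongside the cell cycle. Among 43 tested genes of these 2 lists 22 rose, none fell, and the median log2 fold change was 0.71. ADM, which encodes the vasodilator adrenomedullin, had 63.1, 78.8 and 45.3 CPM in recovery tumours, against 5.88, 3.72 and 8.98 CPM in end-of-treatment tumours (3.33 ± 0.32, SE, edgeR adjusted p = 0.00018). NDRG1, a gene induced by hypoxia, had 653, 699 and 326 CPM in recovery tumours, against 82.0, 74.0 and 108 CPM in end-of-treatment tumours (2.67 ± 0.41, edgeR adjusted p = 0.005). Recovery tumour 3 was the lowest of its group and end-of-treatment tumour 3 the highest of its group at both genes, and the groups still did not overlap. CA9, a carbonic anhydrase of hypoxic tumours, rose by 2.60 ± 0.39, the angiogenic factor VEGFA by 1.43 ± 0.22 and the mitophagy receptor BNIP3 by 1.29 ± 0.18. ANGPTL4 rose by 2.50 ± 0.57 (edgeR adjusted p = 0.043) but passed only when recovery tumour 3 was left out among the 6 fits.

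On the glycolytic side, SLC2A1, the glucose transporter GLUT1, had 255, 286 and 263 CPM in recovery tumours, against 80.9, 80.6 and 106 CPM in end-of-treatment tumours (1.59 ± 0.21, edgeR adjusted p = 0.00098). The lactate exporter SLC16A3, the phosphofructokinase PFKP and the regulatory enzyme PFKFB4 rose by 1.56 ± 0.17, 1.08 ± 0.13 and 1.76 ± 0.19. In the test of the difference from the change in vehicle tumours, ADM alone of the 43 low oxygen and glycolysis genes passed (edgeR adjusted p = 0.037). Without vehicle recovery tumour 2, PFKFB4 alone passed it (edgeR adjusted p = 0.0345) and ADM did not (edgeR adjusted p = 0.12). The median change in vehicle tumours over the same interval was 0.50 for these 43 genes, against 0.18 for the S phase and 0.24 for the mitosis genes. These medians were 0.33, 0.042 and 0.035 without vehicle recovery tumour 2, and 0.64, 0.11 and 0.13 without vehicle end-of-treatment tumours 2 and 3. Leaving out 1 palbociclib tumour left 12 to 19 of the 43 genes past the threshold, and the count was 29 without vehicle recovery tumour 2 and 17 without vehicle end-of-treatment tumours 2 and 3.

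Secreted signals were uneven among tumours. In the chemokine and cytokine list 7 of 20 genes rose and none fell, with a median of 1.59. CXCL8, the neutrophil attractant interleukin 8, had 32.8, 34.5 and 13.8 CPM in recovery tumours, against 1.69, 3.41 and 2.70 CPM in end-of-treatment tumours (3.38 ± 0.63, SE, edgeR adjusted p = 0.016). Recovery tumour 3 was lowest, and the call was lost without end-of-treatment tumour 1 or 3 (edgeR adjusted p up to 0.092). CXCL1 and CCL20 rose by 2.46 ± 0.57 and 3.17 ± 0.74 (edgeR adjusted p = 0.046 and 0.04) and each passed in 1 of 6 fits, the one without recovery tumour 3. LIF, a cytokine of the interleukin 6 family, had 164, 127 and 184 CPM in recovery tumours, against 48.7, 58.8 and 66.2 CPM in end-of-treatment tumours (1.45 ± 0.23, edgeR adjusted p = 0.0044), and passed in all 6. Leaving out 1 palbociclib tumour left between 1 and 5 genes of the list. In vehicle tumours over the same interval the median of the list was 0.43, and 2.08 without vehicle end-of-treatment tumours 2 and 3, and no gene of it passed the test of the difference from vehicle. LIF changed there by 0.71 (difference adjusted p = 0.93 by edgeR), and without those 2 tumours LIF, CXCL8, CXCL1 and CCL20 were at 1.43, 1.86, 2.17 and 2.15.

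In the list of epidermal growth factor receptor family members and ligands, 3 of 14 genes rose and 1 fell, all of them ligands. EREG, encoding epiregulin, had 209, 144 and 279 CPM in recovery tumours, against 50.6, 53.6 and 59.9 CPM in end-of-treatment tumours (1.94 ± 0.34, edgeR adjusted p = 0.0094). AREG and HBEGF, ligands of the same receptor, rose by 2.03 ± 0.40 and 1.23 ± 0.23 (edgeR adjusted p = 0.024 and 0.0097), and the 3 genes passed in 5, 2 and 4 of the 6 fits that left out a palbociclib tumour (edgeR adjusted p up to 0.059 for EREG, 0.12 for AREG and 0.057 for HBEGF). At EREG and AREG recovery tumour 3 was the highest of its group and recovery tumour 2 the lowest. NRG1, the ligand of ERBB3 and ERBB4, had 31.8, 15.4 and 18.6 CPM in recovery tumours, against 84.9, 68.6 and 93.5 CPM in end-of-treatment tumours, and fell by 1.91 ± 0.26 on the log2 scale (edgeR adjusted p = 0.0014). It passed in all 6 fits. In vehicle tumours EREG, AREG and NRG1 were at 0.89, 0.94 and -1.27 on the log2 scale, none of which passed, and no gene of the list passed the test of the difference.

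Early-response factors rose at 4 of 19 genes. FOS had 87.4, 79.1 and 90.9 CPM in recovery tumours, against 31.4, 32.5 and 31.7 CPM in end-of-treatment tumours (1.43 ± 0.15, SE, edgeR adjusted p = 0.00011). KLF4 had 19.2, 22.5 and 20.8 CPM in recovery tumours, against 4.90, 3.41 and 5.31 CPM in end-of-treatment tumours (2.19 ± 0.30, edgeR adjusted p = 0.0012). JUN rose by 1.00 ± 0.13, while JUND (0.47 ± 0.12, edgeR adjusted p = 0.046) passed in none of the 6 fits. The feedback genes of RAS-MAPK signalling had 2 calls among 17, where 2.82% of all genes were called, with DUSP5 the only one that rose (0.58 ± 0.12, edgeR adjusted p = 0.016, past the threshold in 1 of the 6 fits), CCND1 the only one that fell and a median of 0.07.

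Lineage and growth lists held few calls. None of 15 basal, 17 mesenchymal, 15 MHC class I, 24 MYC and ribosome biogenesis, 18 circadian clock and 13 mitochondrial genome genes passed by edgeR, with list medians between -0.10 and 0.39. Over all genes tested 2.82% passed, so a list of this size can hold no call without differing from all genes. Without vehicle recovery tumour 2, 1 MYC and ribosome biogenesis gene rose and the other 5 lists stayed at 0. In the myoepithelial contractile list TAGLN and MYLK fell by 0.63 ± 0.12 and 0.73 ± 0.17 (edgeR adjusted p = 0.013 and 0.032) among 10 genes with a median of -0.50, against 0.467% of all genes that fell, and they passed in 2 and 1 of the 6 fits that left out a palbociclib tumour. SPRR1B, a component of the cornified envelope, was the only one of 19 squamous genes that rose (2.98 ± 0.53, edgeR adjusted p = 0.0065). Its values were 1.51, 2.69 and 2.89 CPM in recovery tumours and 0.178, 0.207 and 0.483 CPM in end-of-treatment tumours, near the level of 3 counts, and the call was lost without end-of-treatment tumour 1 (edgeR adjusted p = 0.056).

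Few genes passed in the remaining lists. FADS1, a fatty acid desaturase, rose by 0.53 ± 0.12 on the log2 scale (edgeR adjusted p = 0.03). OAS3 (0.73 ± 0.15) and SQSTM1 (0.48 ± 0.12) were single calls in the interferon and lysosome lists of 23 and 22 genes, where 2.36% of all genes rose. OAS3 and FADS1 passed in 1 of the 6 fits without 1 palbociclib tumour, and SQSTM1 in 0.

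**Figure D4:**
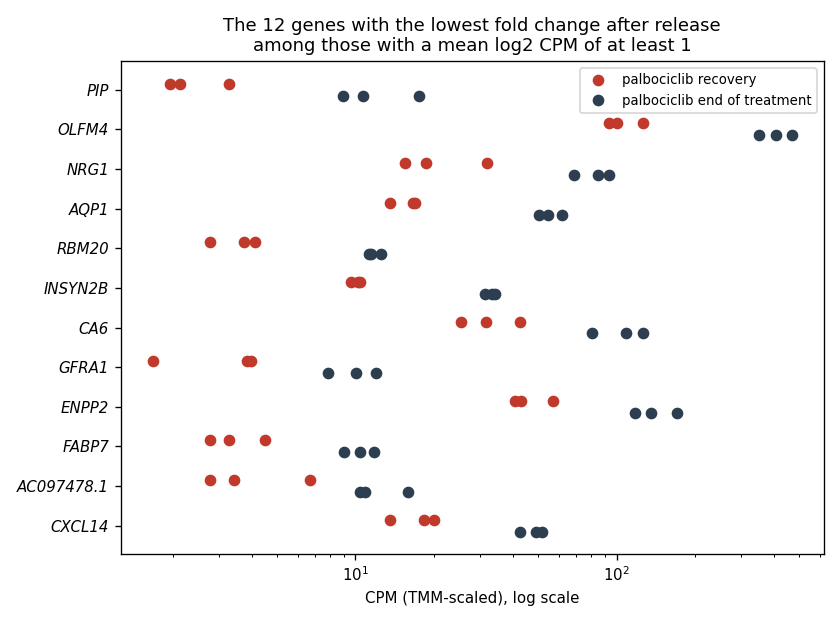
Level of 12 genes (rows) in the 3 palbociclib recovery and 3 palbociclib end-of-treatment tumours, in CPM on a log axis. They are the genes with the lowest fold changes among those that passed and had a mean log2 CPM of at least 1, and the choice by fold change sets the direction and the gap.

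The genes with the lowest fold changes stood outside the cell cycle lists. PIP, the only one of 16 luminal genes that passed and a secreted protein of luminal and apocrine breast cells, had 3.27, 1.95 and 2.12 CPM in recovery tumours, against 10.7, 8.99 and 17.5 CPM in end-of-treatment tumours, and fell by 2.33 ± 0.41 on the log2 scale (SE, edgeR adjusted p = 0.0062). INSYN2B fell by 1.71 ± 0.16 and was the steadiest of the 12, with 9.64, 10.4 and 10.2 CPM in recovery tumours and 34.2, 31.2 and 33.2 CPM in end-of-treatment tumours. ENPP2, the enzyme autotaxin that makes lysophosphatidic acid, had 43.001, 57.0 and 40.8 CPM in recovery tumours, against 117, 170 and 136 CPM in end-of-treatment tumours (-1.59 ± 0.25, edgeR adjusted p = 0.0048). RBM20, a splicing factor, fell by 1.73 ± 0.31. PIP, INSYN2B, ENPP2, RBM20 and NRG1 passed in all 6 fits that left out a palbociclib tumour.

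The others were less steady. OLFM4 had 93.0, 100.02 and 126 CPM in recovery tumours, against 406, 350 and 468 CPM in end-of-treatment tumours (-1.94 ± 0.46, edgeR adjusted p = 0.0498), and passed in none of the 6 fits (edgeR adjusted p up to 0.17). The water channel AQP1, the carbonic anhydrase CA6, the GDNF receptor GFRA1, the fatty acid binding protein FABP7 and the chemokine CXCL14 fell by 1.83, 1.66, 1.64, 1.56 and 1.47, and each passed in 1 or 2 of the 6 (edgeR adjusted p up to 0.14). In vehicle tumours the same interval gave negative changes at all of these genes, none of which passed. The log2 fold change there was -1.67 ± 0.46 for OLFM4 and -2.13 ± 0.36 for AQP1, -1.85 for RBM20, -1.24 for INSYN2B, -1.35 for PIP, -1.27 for NRG1, -1.93 for FABP7, -1.38 for CA6, -0.97 for GFRA1, -0.79 for CXCL14 and -0.32 for ENPP2. None of the 11 passed the test of the difference between the change after release and that in vehicle tumours (edgeR adjusted p from 0.43 for ENPP2 to 0.98 for RBM20), and without vehicle recovery tumour 2 ENPP2 did (0.047).

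The vehicle tumours give the change over the same interval without drug. Their libraries do not enter the release fold changes but share the estimate of spread behind its p-values. No gene passed between vehicle recovery and vehicle end of treatment by edgeR, with 2687 genes at an unadjusted p under 0.05, while DESeq2 called 83 and leaving out 1 vehicle tumour at a time gave 0 to 6 by edgeR. Of the 439 genes that rose after release, 402 had a positive vehicle fold change, against 9206 of all 18628 genes, and the median vehicle change of the 439 was 0.29. Without vehicle recovery tumour 2 these were 343 genes and 0.13, and without vehicle end-of-treatment tumours 2 and 3 they were 356 and 0.21. Of the 87 genes that fell, 78 had a negative vehicle fold change, with a median of -0.38.

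A test of the difference between the change after release and the change in vehicle tumours called 41 genes (0.22%), all with the larger rise after release. All 41 had also passed in the release comparison, and 30 stood in the lists. For KIF20A the vehicle tumours had 90.0, 109.7 and 87.9 CPM at recovery, against 82.8, 87.9 and 69.6 CPM at the end of treatment, and the difference was 2.31 ± 0.23 on the log2 scale (SE, edgeR adjusted p = 0.001). PIF1, TROAP and MKI67 differed by 2.92, 2.75 and 2.14 (edgeR adjusted p = 0.001, 0.0029 and 0.012). Outside the cell cycle lists, ADM and FOS differed by 2.53 and 1.13 (edgeR adjusted p = 0.037 each). Without vehicle recovery tumour 2 FOS still passed (edgeR adjusted p = 0.00043) and ADM did not (edgeR adjusted p = 0.12).

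By list, 15 of the 86 mitosis genes and 3 of the 86 S phase genes were among them. The counts were 40 and 17 without vehicle recovery tumour 2, and 2 and 0 without vehicle end-of-treatment tumours 2 and 3. No gene passed this test in the lower direction, against 7 without vehicle recovery tumour 2, and CCND1 was at -0.81 (edgeR adjusted p = 0.074, and 0.013 without vehicle recovery tumour 2). The count of 41 rested on few libraries: it was 161 without vehicle recovery tumour 2, 70 without palbociclib end-of-treatment tumour 2, 12 to 22 without any other single tumour, and 4 without vehicle end-of-treatment tumours 2 and 3, which were PIF1, KIF20A, TROAP and KIF18B.

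**Figure D5:**
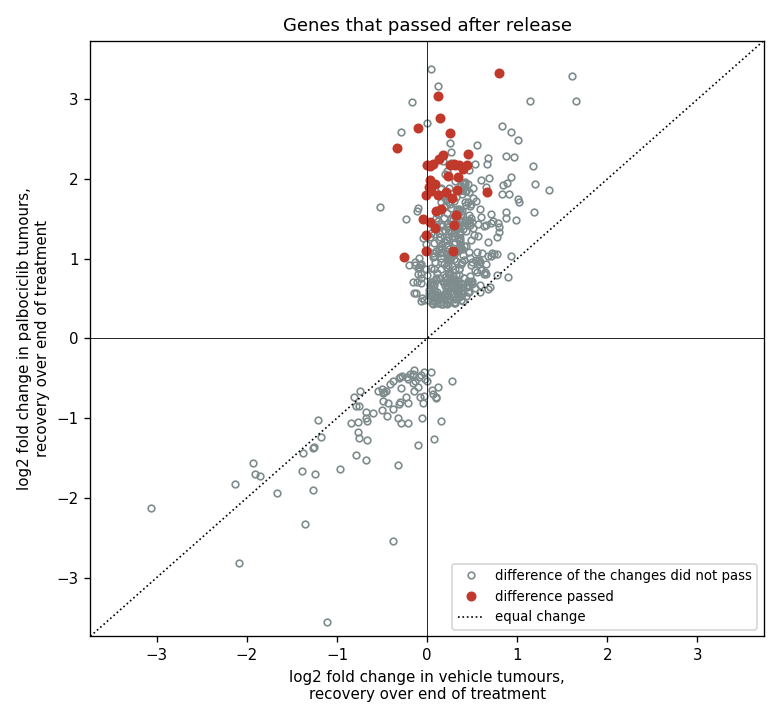
The 526 genes that passed after release, with the log2 fold change of palbociclib recovery over palbociclib end of treatment (vertical axis) against that of vehicle recovery over vehicle end of treatment (horizontal axis). Red points are the 41 genes whose change differed between the 2 by edgeR, and the dotted line marks equal change.

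Set beside vehicle recovery tumours, palbociclib recovery tumours had the lower mean at 363 of the 439 genes that rose, a count that includes vehicle recovery tumour 2. The summed mitosis lists had 5343 CPM in that tumour and 3834 and 3797 CPM in vehicle recovery tumours 1 and 3. No such count was made without that tumour or over all genes, so the 363 has no background to be set against. MKI67 had 179, 187 and 185 CPM in palbociclib recovery tumours, against 179, 244 and 248 CPM in vehicle recovery tumours, so 1 vehicle tumour was level with them and the others were higher. CCNE2 averaged 12.4 ± 0.507 CPM in palbociclib recovery tumours and 11.7 ± 0.930 CPM in vehicle recovery tumours, and BTG2 65.7 ± 8.85 and 54.2 ± 8.57 CPM, in the same order (SD, n = 3 each). In this comparison, which shares the recovery tumours with the release comparison, 1 gene of 18628 (0.00537%) passed by edgeR, the tubulin pseudogene TUBBP6 (named after its value was seen), and 1612 genes had an unadjusted p under 0.05.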

How the data were processed

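Tumour RNA from 12 xenografts was sequenced and the authors deposited raw counts per gene for each library, human and mouse genes together. Per the submitters' processing notes, the tools were CASAVA 1.8, cutadapt, STAR and edgeR and the builds GRCh38 and GRCm38, with no role stated. The counter, its strand setting and the annotation release were not given in the sources used here. In each table, 4 rows that name no gene held 37.0% to 69.1% of reads and were left out, as were 713 rows that repeat 484 identifiers. Symbols came from the tables' own identifiers through GENCODE 29 for 57980 of the 58243 human identifiers. How reads common to both species were assigned is not stated.

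Human counts were fitted with edgeR 4.0.16 (limma 3.58.1, R 4.3.3) by the quasi-likelihood test, with scaling by the trimmed mean of M-values, filterByExpr (minimum count 10, total 15), 18628 genes tested, Benjamini-Hochberg adjustment over all of them and a threshold of 0.05. The design had 4 group means over all 12 libraries, so the groups shared 1 estimate of the spread. Contrasts were recovery minus end of treatment in palbociclib tumours, the same in vehicle tumours, and the difference of the 2. On counts simulated from these libraries the release contrast called 62 of 100 simulated 2-fold changes and 94 of 100 simulated 4-fold changes, with 11 false calls among 18195 genes. Library shares were compared with exact permutation tests, which at 3 against 3 cannot go below 0.1. Counting floors are 3 counts and cover counting error only. No 2 libraries of a group agreed within counting noise.

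The 40 lists and their 674 genes, of which 635 were tested, and the members were chosen with earlier results of these data known. Named genes were the 12 highest and 12 lowest fold changes among called genes (mean log2 CPM of at least 1), the up to 4 smallest p-values of each list with a called gene and 2 of each other list, 18 cycle genes whatever their result, and the 8 smallest p-values of the difference; a few of these genes are not reported here. Alternatives were RLE scaling, DESeq2 1.42.0, no filter, a minimum of 1 CPM, the mouse share as a covariate, the 6 palbociclib libraries alone, and fits without single libraries. Promoters came from RefSeq on GRCh38.p14.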

Additional observations from a re-analysis of the deposited data

Results flagged for a closer look

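A test of the difference between the change after release and the change in vehicle tumours over the same interval passed at 41 genes (edgeR's quasi-likelihood test, Benjamini-Hochberg adjustment), and 29 of these are named here. Each difference is the log2 fold change after release minus that in vehicle tumours. Among kinesins it was 2.31 for KIF20A, 1.82 for KIF18B, 1.84 for CENPE and 1.69 for KIF2C. Among kinases and their partners it was 1.87 for NEK2, 0.80 for INCENP, 1.11 for WEE1 and 1.44 for CIT. At the centromere and on condensed chromosomes it was 2.63 for CENPA, 1.86 for HJURP, 1.88 for CENPF, 1.47 for NCAPH and 1.81 for ESPL1. For other genes of dividing cells it was 2.92 for PIF1, 2.75 for TROAP, 2.14 for MKI67, 1.797 for HMGB2, 2.12 for GTSE1, 2.17 for IQGAP3 and 1.67 for PRC1. Of the cyclin, E2F and ubiquitin ligase genes, CCNE2 had 1.31, E2F8 2.73, CCNF 1.53 and DTL 1.62. Among replication and repair genes, UHRF1 had 1.22, EXO1 1.504 and XRCC2 1.28. Outside the cell cycle, ADM had 2.53 and FOS 1.13. ADM lost this call without vehicle recovery tumour 2 (edgeR adjusted p = 0.12). The other calls also depended on the libraries used. The count of 41 was 161 without vehicle recovery tumour 2 and 70 without palbociclib end-of-treatment tumour 2. It was 12 to 22 without any other single tumour.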

How the results depend on the processing

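The 439 genes that rose became 937 with no filter on low counts, 979 without vehicle recovery tumour 2 and 1083 with the 6 palbociclib libraries alone, and the 87 that fell became 210, 446 and 534 under the same 3 settings. Without 1 palbociclib tumour they ranged from 184 to 319 and from 21 to 37. The lower count was 170 with DESeq2, 39 without vehicle end-of-treatment tumours 2 and 3 and 48 with the mouse share as a covariate. Vehicle tumours, with 0 genes called, gave 1 with RLE scaling, 83 with DESeq2, 1124 with no filter and 0 to 6 without 1 tumour. The 41 genes of the difference became 104 with DESeq2, 320 with no filter, 4 without vehicle end-of-treatment tumours 2 and 3 and 12 to 161 without 1 tumour. The cause was not tested. Of the 116 named genes that passed, 76 did so in all 6 fits without 1 palbociclib tumour, and over 14 alternatives none changed sign. CDK4, not called at 0.07, ranged from -0.033 (without end-of-treatment tumour 3) to 0.12 without 1 palbociclib tumour. No paired analysis was possible because the labels number no replicates, and tumours 1 to 3 of each group are names given in accession order. At this depth and with 3 tumours a group, 62 of 100 simulated 2-fold changes were called after release, so a gene that did not pass may still have changed.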

Other observations

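The replication-dependent histone genes, which cluster on the genome and are transcribed in S phase, were examined after their values had been seen. Of 71 listed genes 51 were tested, 38 rose, none fell, 48 had positive fold changes, and the median log2 fold change was 1.23, against -0.01 over all genes tested. Their summed level was 3312, 3148 and 3151 CPM in palbociclib recovery tumours, against 1501, 1884 and 1154 CPM in palbociclib end-of-treatment tumours. The 3 recovery tumours were close together and the end-of-treatment tumours lay well below them. By class, 5 of 5 linker H1 genes, 8 of 11 H2A, 16 of 17 H2B, 6 of 8 H3 and 3 of 10 H4 genes rose. HIST1H3A had 45.6, 39.2 and 34.9 CPM in recovery tumours, against 15.1, 16.7 and 11.6 CPM in end-of-treatment tumours (log2 fold change 1.46 ± 0.20, SE, edgeR adjusted p = 0.00099). Leaving out 1 palbociclib tumour gave 14 (without end-of-treatment tumour 1) to 41 genes that rose, and the count was 45 without vehicle recovery tumour 2 and 30 without vehicle end-of-treatment tumours 2 and 3. No histone gene passed the test of the difference from vehicle tumours, where the median change was 0.33. Without vehicle recovery tumour 2, 17 of the 51 passed it and the vehicle median was 0.041, and without vehicle end-of-treatment tumours 2 and 3 none of 52 did and the median was 0.087. Histone copies are nearly identical, so single genes can share reads, and most of their transcripts lack a poly(A) tail.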
